A study of Mus musculus with 8 samples.

Results

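The ependymal-like ciliated nuclei described here were 311 of 4475 nuclei from the ventricular-subventricular zone (V-SVZ) of 8 mice. A barcode was a member when it had at least 300 detected genes, under 30% of its unique molecular identifiers (UMIs, 1 per captured RNA molecule) from mitochondrial genes, at least 5 raw UMIs summed over Cfap299, Dnah12 and Spag16, and under 20 UMIs summed over the choroid plexus genes Ttr, 2900040C04Rik and Ecrg4. The 4475 barcodes that met the limits on genes and mitochondrial UMIs are called low-mitochondrial barcodes, and they were 11.8% of the 37881 barcodes with at least 300 genes. Members were chosen by measured values, the UMIs of these 6 genes in the same nuclei, so their profile is given as a description without a test, and tests are kept to comparisons between mice.

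The 4 control mice were Tsc2 wt/wt and the 4 mutant mice Tsc2 mut/mut, all at postnatal day 90, with 1 library per mouse, so the mouse was the replicate. Tsc2 encodes tuberin, a brake on the growth kinase complex mTORC1, and the study asked how its loss alters progenitors of the V-SVZ. Each library was made by droplet capture of RNA 3′ ends (10x Genomics) from 100000 sorted nuclei positive for tdTomato, a red reporter that Cre recombinase switches on, so both genotypes carried the reporter and had met Cre. The study's methods describe a conditional Tsc2 allele with Cre delivered either by an electroporated CAG-CRE plasmid or by Nestin-CreERT2 and tamoxifen, and the sources used here do not say which route these mice had. The sort gated on tdTomato fluorescence, so the shares below are shares of sorted nuclei and not of the tissue. How many sorted nuclei were recombined was not measured here. Total UMIs ranged from 11182335 to 36773832 per library over 60000 barcodes each.

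Ependymal cells form the single layer that lines the brain ventricles, and their tufts of motile cilia move cerebrospinal fluid over the V-SVZ niche. A motile cilium is built on an axoneme of doublet microtubules around a central pair. Outer and inner dynein arms drive the sliding of the doublets, and the nexin-dynein regulatory complex, the radial spokes and the central apparatus regulate it. The transcription factors FOXJ1 and the RFX family are known to drive genes of motile cilia.

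The library of Tsc2 mut/mut replicate 4 stood apart from the others and is set out first. It held 1 member, of 947 UMIs, among 272 low-mitochondrial barcodes, and that member was at 29.0% mitochondrial UMIs, just under the limit. Of its low-mitochondrial barcodes, 190 had at least 20 UMIs of the choroid plexus genes and 8 had at least 20 UMIs over the astrocyte genes Slc1a2, Slc1a3 and Gpc5. Levels are given in CPM, the counts of a gene scaled to a common total per mouse, and a single UMI in this member equals 1056 CPM. Levels below are therefore means over the other 7 mice, and comparisons of genotypes are given with and without this mouse, with these exceptions. Summed levels are given by mouse. Genotype medians of the lists on assembly, intraflagellar transport, tubulin and basal bodies are given with all mice only.

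Members held many genes of the motile cilium beside the 3 that selected them. Median depth was 2850 UMIs per member (lowest 405, highest 25578) and 1549 genes. The 3 selecting genes gave a median of 22 UMIs, or 0.847% of a member's UMIs, with the middle 80% of members between 0.452% and 1.41%. Of 94 genes in the lists on dynein arms and their assembly, the nexin-dynein complex, radial spokes, central apparatus and doublets (called axonemal genes below), a median of 39 was detected per member. The median in the other low-mitochondrial barcodes was 1 in 7 mice and 4 in Tsc2 mut/mut replicate 4.

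The edge of the rule was gradual. Just inside it, 33 members had 5 to 7 UMIs of the selecting genes, with a median of 24 axonemal genes in 1342 UMIs. Just outside it, 29 barcodes had 3 or 4 UMIs, with a median of 12 axonemal genes in 4084 UMIs. Barcodes at 0 numbered 3897 and had a median of 1 axonemal gene in 2119 UMIs. The barcodes outside the edge were thus deeper and held fewer axonemal genes than those inside it. The other limits removed few barcodes with at least 5 UMIs of the selecting genes. The mitochondrial limit removed 7, of which 5 came from Tsc2 mut/mut replicate 4, the choroid plexus limit removed 3, and the limit of 300 genes removed 2. No member barcode was a member, or a low-mitochondrial barcode, in another library, and 36 recurred among the 60000 barcodes of another library.

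The label was compared with ependymal markers that the rule did not use, which is a description and not an independent check. The lists were made with earlier results of these data known. Some of the markers, such as Hydin, Dnah9 and Ak7, are axonemal genes like the selecting genes. Syne1, which encodes a large linker of the nuclear envelope to the cytoskeleton, was at 5600 ± 1132 CPM in members (SD, n = 7 mice) against 650.2 ± 141 CPM in the other low-mitochondrial barcodes. By mouse, Syne1 was at 6915, 4710, 7063 and 4749 CPM in Tsc2 wt/wt and at 4848, 6380 and 4538 CPM in Tsc2 mut/mut replicates 1 to 3, and the genotypes overlapped. It was detected in 309 of 311 members (99.4%, 95% Wilson interval 97.7 to 99.8%). Syne1 was also detected in 83.5% of astrocyte-class barcodes, which had a median of 3491 UMIs, so its level more than its presence set members apart from that class. In choroid plexus-class barcodes, at a median of 4972 UMIs, it was detected in 16.6%. Of 17 listed ependymal markers outside the rule, all 17 had at least 10 UMIs in members and 12 were at least 4-fold higher than in other low-mitochondrial barcodes. Markers of other types are given further below.

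Leading genes were ranked by the mean over 7 mice of log2((CPM in members + 10)/(CPM in other low-mitochondrial barcodes + 10)), among 1968 genes with at least 100 UMIs in members. The 25 highest had ratios between 5.67 and 6.64 on this log2 scale, and the pseudocount of 10 CPM holds these ratios down where the other barcodes were near 0. They lay on 14 chromosomes, 21 of them encode proteins, and 13 were in the lists of cilia or ependymal genes used here. Their gene bodies were long, with a median span of 172.6 kb against 103.6 kb over all 1968 genes.

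Promoters of leading genes are shown because RFX factors and FOXJ1 are the known regulators of this program, and the letters allow the windows to be read beside the levels. RefSeq promoters (GRCm38.p6, from 250 bases before to 50 bases after the start, 1 per gene) were found for 21 of the 28 genes made up of the 25 leading and 3 selecting genes. They were searched on both strands for the RFX half-site GTTGCC and for the forkhead core TGTTTAC, which do not overlap each other in letters. The RFX half-site was in 6 of 21 (28.6%), against 12.7% of all 27025 promoters and 15.97% of those of the 1968 genes. Over a wider set, the genes at least 4-fold higher in members, it was in 90 of 318 promoters (28.3%). The forkhead core was in 4 of 21 (19.05%) against 3.55% of all promoters, but in 15 of 318 (4.72%) of the wider set. Among the 4, the windows of Wdr49 and Cfap43 lay inside the gene bodies used for the spans and not at their 5′ ends. Matches are letters only and no binding was measured. The promoters shown are on chromosome 1 from 69826720 to 69827019 (Spag16, plus strand), chromosome 3 from 75431188 to 75431487 (Wdr49, minus strand), chromosome 10 from 41303684 to 41303983 (Ak9, plus strand) and chromosome 10 from 4482265 to 4482564 (Ccdc170, plus strand). They are written 5′ to 3′ on the gene's strand, with capitals for either motif on either strand.
Spag16: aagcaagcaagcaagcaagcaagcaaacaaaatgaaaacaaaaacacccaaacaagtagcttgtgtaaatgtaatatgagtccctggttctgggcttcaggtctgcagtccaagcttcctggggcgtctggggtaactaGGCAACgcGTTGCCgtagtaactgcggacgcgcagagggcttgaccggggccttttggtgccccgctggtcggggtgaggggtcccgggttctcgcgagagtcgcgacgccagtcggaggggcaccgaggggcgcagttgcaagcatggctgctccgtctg
Wdr49: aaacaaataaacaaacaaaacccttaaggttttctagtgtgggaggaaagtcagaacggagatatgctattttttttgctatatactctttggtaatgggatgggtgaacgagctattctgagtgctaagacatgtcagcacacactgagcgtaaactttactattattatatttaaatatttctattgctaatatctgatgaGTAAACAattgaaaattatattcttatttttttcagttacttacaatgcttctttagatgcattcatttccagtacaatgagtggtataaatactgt
Ak9: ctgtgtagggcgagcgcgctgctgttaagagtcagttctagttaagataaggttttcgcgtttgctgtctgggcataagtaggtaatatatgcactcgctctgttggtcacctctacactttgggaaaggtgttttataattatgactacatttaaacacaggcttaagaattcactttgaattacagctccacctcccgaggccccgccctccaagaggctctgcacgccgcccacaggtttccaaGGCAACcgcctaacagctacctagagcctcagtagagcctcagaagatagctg
Ccdc170: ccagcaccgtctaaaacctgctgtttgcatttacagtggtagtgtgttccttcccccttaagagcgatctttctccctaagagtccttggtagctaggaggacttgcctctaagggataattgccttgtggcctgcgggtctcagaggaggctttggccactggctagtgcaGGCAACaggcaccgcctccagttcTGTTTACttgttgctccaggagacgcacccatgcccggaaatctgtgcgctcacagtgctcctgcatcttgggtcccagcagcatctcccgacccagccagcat

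In these windows Spag16 held 2 RFX half-sites, Wdr49 held 1 forkhead core, Ak9 held 1 RFX half-site 3 bases before its start, and Ccdc170 held both motifs. The Ak9 window was the only one of the 21 to match the longer RFX palindrome, whose letters can overlap the half-site, and which was in 0.444% of all promoters.

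**Figure D1:**
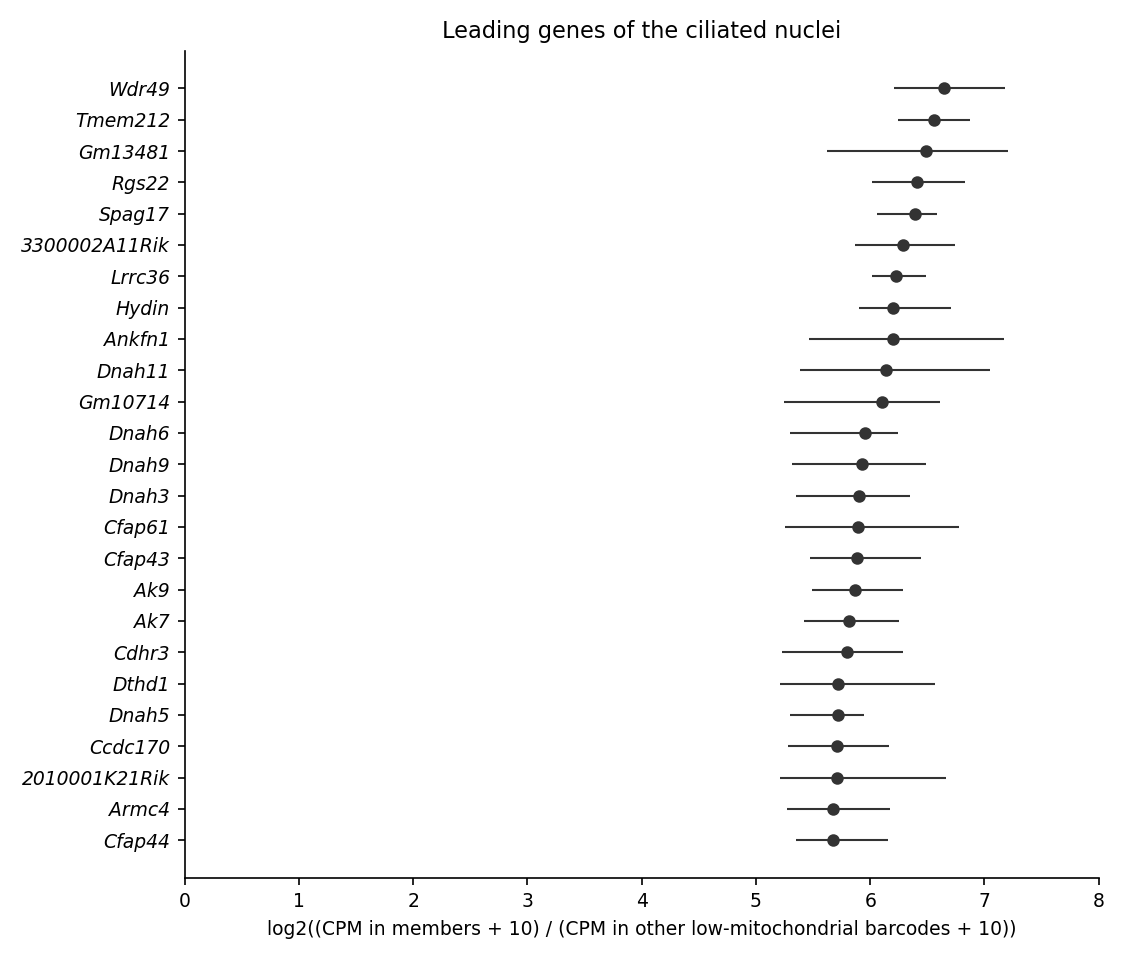
The 25 leading genes are drawn by their log2 ratio of level (CPM + 10) in members to that in other low-mitochondrial barcodes, with points for the mean over 7 mice and lines from the lowest to the highest mouse. Every line lies above 5 on the log2 scale.

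Genes of the dynein arms, the motors of the cilium, were the largest group among the leading genes, with 6 of 25. Dnah9, Dnah11 and Dnah5 encode heavy chains of the outer arm. Dnah9 was at a median of 1285 CPM in members (lowest mouse 1054, highest 1718) and at 3.17 to 18.9 CPM in the other low-mitochondrial barcodes. Dnah11 was at a median of 1017 CPM (808 to 1886), and Dnah5 at 732.9 CPM (587.3 to 850.8). Dnah6 and Dnah3 encode heavy chains of inner arms, with medians of 1038 CPM (790.7 to 1463) and 730.2 CPM (483.4 to 1129). Armc4, which helps dock the outer arm, was at a median of 602.4 CPM (483.4 to 816.8). In each of these genes the lowest mouse in members was above the highest mouse in the other barcodes. The genes were ranked by this ratio, which favors such a separation, so it is a description only. Of the 9712 genes with at least 10 UMIs in members, 16.1% were higher in members than in the other barcodes in every one of 7 mice. Of 21 genes on the dynein arm list outside the rule, 20 had at least 10 UMIs in members and all 20 were at least 4-fold higher there, while Dnah8 had 3 UMIs. Over all 9712 genes with at least 10 UMIs in members, 6.11% were at least 4-fold higher and the median log2 ratio was -0.09, against a median of 4.43 for the dynein arm list. Dnah7a, Dnah7b and Dnah7c are close copies, and how reads were shared among them is uncertain.

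The central apparatus was the list with the highest median ratio among the cilia lists, 4.99 on the log2 scale, and all 15 of its 16 genes that had at least 10 UMIs were at least 4-fold higher. Spag17 and Hydin, large proteins of the central pair projections, were at medians of 923.5 CPM (779.2 to 1357) and 870.8 CPM (710.9 to 1489). Cfap54 and Spef2, also of the central apparatus, were at means of 1910 ± 518 and 1582 ± 165 CPM (SD, n = 7). Ak7 and Ak9 encode adenylate kinases, enzymes that balance adenine nucleotides, and were at medians of 937.8 CPM (540.3 to 1190) and 801.8 CPM (758.0 to 1048).

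Regulators on the doublets followed. Cfap61, of the radial spoke region, was at a median of 923.5 CPM (783.1 to 1561). Cfap43 and Cfap44, which tether an inner dynein to the doublet, were at medians of 991.5 CPM (710.9 to 1489) and 1059 CPM (767.7 to 1604). The nexin-dynein list had 10 of 11 genes at least 4-fold higher, led by Fbxl13 at 428.3 ± 96.3 CPM. The radial spoke list had 9 of 13 genes with at least 10 UMIs at least 4-fold higher. The list of doublet microtubule proteins had 15 of 20.

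Lists on assembly, transport, tubulin and basal bodies had lower ratios to the other barcodes. Factors that assemble dynein arms in the cytoplasm had 4 of 9 genes at least 4-fold higher, with Lrrc6 at 319.2 ± 104 CPM. Intraflagellar transport, the carriage of parts along the cilium, had 8 of 26, with Ift88 at 376.4 ± 91.3 CPM against 28.7 CPM in other barcodes. Tubulins and the enzymes that modify them had 6 of 15, with the most UMIs for Agbl4, a deglutamylase, at 2625 ± 408 CPM against 98.7 CPM. Of 11 genes for basal bodies and centriole amplification, 3 were at least 4-fold higher. The medians of these 4 lists were between 1.36 and 1.81 on the log2 scale, against 2.74 to 4.99 for the lists on dynein arms, nexin-dynein complex, radial spokes, central apparatus and doublets.

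**Figure D2:**
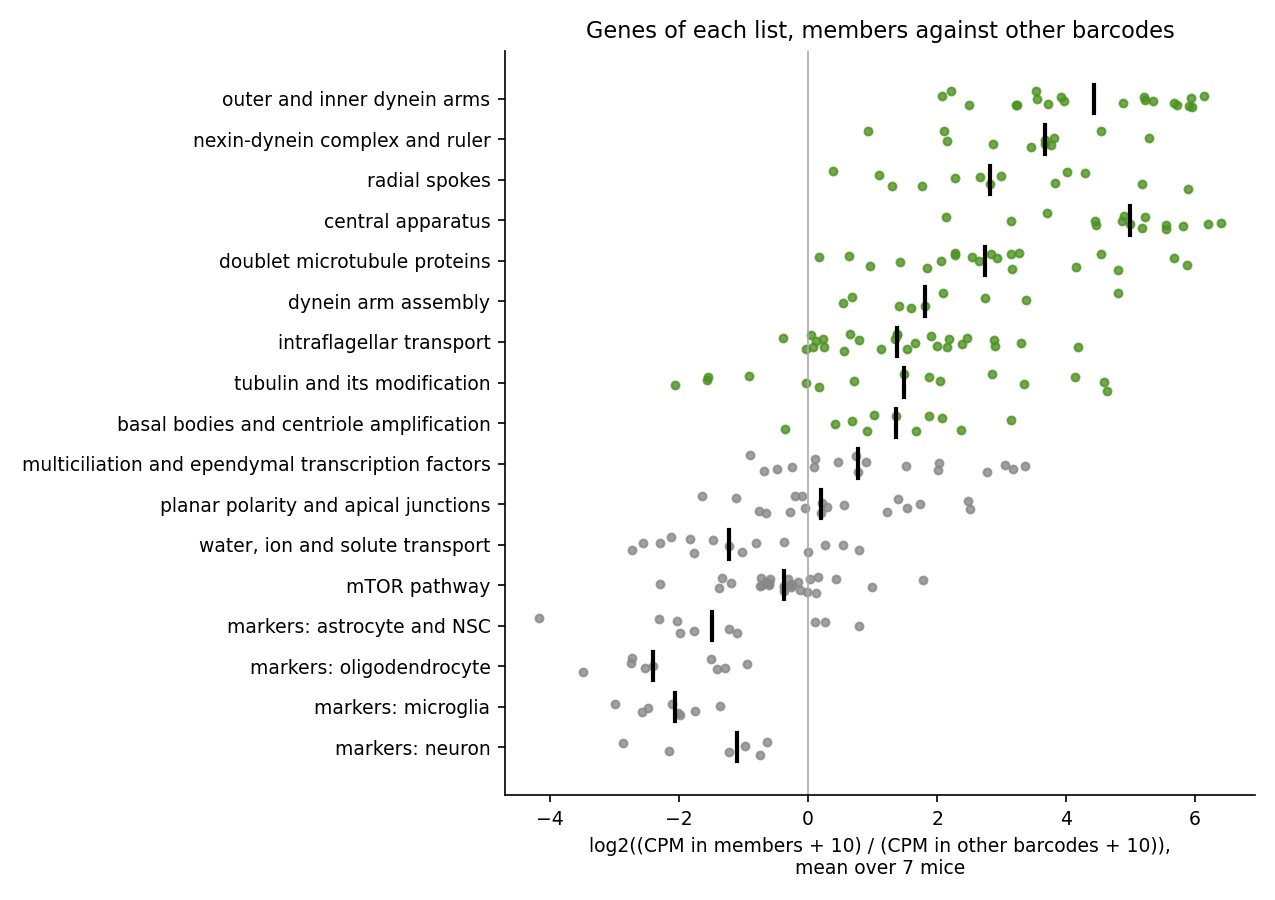
Each point is 1 gene with at least 10 UMIs in members, placed by its mean log2 ratio of level (CPM + 10) in members to that in other low-mitochondrial barcodes, and black bars are list medians. Cilia lists, in green, lie mostly to the right of 0, and markers of oligodendrocytes, microglia and neurons lie to the left.

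Some transcription factors of multiciliated cells were higher in members and others were shared with other nuclei. Foxj1, the regulator of motile ciliogenesis, was at a median of 115.5 CPM (64.4 to 156.5) and was detected in 86 of 311 members (27.7%, 95% Wilson interval 23.0 to 32.9%). Choroid plexus-class barcodes, which were deeper at a median of 4972 UMIs, had Foxj1 in 19.7% and at 44.0 CPM, and astrocyte-class barcodes had it in 0.1% at 0.150 CPM. Rfx2 and Rfx3 were at 275.4 ± 104 and 1364 ± 214 CPM in members, and Rfx3 was also at 551.8 CPM in astrocyte-class barcodes. Myb and Trp73, which act early in multiciliation, were at 91.5 ± 38.5 and 95.9 ± 27.2 CPM in members against 0.398 and 2.52 CPM in the other barcodes. Mcidas, an inducer of multiciliation, had no UMI in members. Nfia and Nfib, factors of the glial lineage, were near the other barcodes, with log2 ratios of 0.47 and 0.10. In all, 6 of 17 genes of this list were at least 4-fold higher.

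Most other leading genes were outside the lists on the axoneme. Wdr49, which encodes a protein of WD repeats, had the highest ratio, with a median of 1305 CPM (893.6 to 1668) in members and 0 to 7.23 CPM in the other barcodes. Tmem212, a membrane protein and classic ependymal marker, followed at a median of 1060.5 CPM (840.6 to 1369) and was detected in 83.9% of members and in 0 of 543 choroid plexus-class barcodes. Rgs22, of the family that regulates G proteins, was at a median of 1251 CPM (987.9 to 2102). Ankfn1 was at a median of 1244 CPM (1069 to 1661), Lrrc36 at 902.0 CPM (739.3 to 1045), Ccdc170 at 827.7 CPM (612.4 to 1213), Cdhr3, a cadherin-related gene, at 552.7 CPM (376.5 to 824.6) and Dthd1 at 500.1 CPM (396.6 to 936.9). In the other low-mitochondrial barcodes the highest value of any of these 8 genes in any of the 7 mice was 15.9 CPM, for Ankfn1.

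Of the 25 leading genes, 4 were noncoding. The long intergenic RNA Gm13481 was at a median of 995.2 CPM (638.0 to 1470) and was detected in 70.7% of members. 3300002A11Rik and Gm10714 are annotated as antisense RNAs, with medians of 913.6 CPM (698.6 to 1232) and 798.4 CPM (369.7 to 1249). Since the sources used here do not state that counting used strand, their reads cannot be told from those of an overlapping gene. 2010001K21Rik was at a median of 853.0 CPM (675.5 to 1297). In each of the 4 RNAs the lowest mouse in members was above the highest mouse in the other barcodes, where Gm13481 was at 0 to 3.22 CPM. The ranking of leading genes by their ratio favors this separation too.

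Classic ependymal markers from whole-cell work were mixed. Ccdc153 was at 274.1 ± 50.9 CPM, Rarres2 at 129.4 ± 24.8 CPM, and Nnat, an imprinted gene, at 938.3 ± 343 CPM, against 0.639, 6.52 and 47.7 CPM in other barcodes. S100b, a calcium-binding protein of glia and ependyma, was at 138.5 ± 51.3 CPM in members and 119.6 CPM in other barcodes, and it was higher, at 767.2 CPM, in barcodes of 100 to 199 genes, which are taken here as a sample of free RNA. Calml4 and Enpp2 were at 65.3 and 92.0 CPM in members and at 994.3 and 12935 CPM in choroid plexus-class barcodes. Genes of water, ion and solute transport were mostly below the other barcodes, with 0 of 15 at least 4-fold higher and 4 at least 4-fold lower. Aqp4, the water channel of glial membranes, was at 197.5 ± 37.6 CPM in members and 185.5 CPM in astrocyte-class barcodes.

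Markers of several other types were also detected in members, and their sums varied among mice. The summed level of 10 astrocyte and neural stem cell markers was 4033 ± 3112 CPM in members against 12588 ± 2962 CPM in the other barcodes, led by Slc1a2 at 1214.5 CPM and detected in 76.5% of members. It ranged from 1470 CPM in Tsc2 wt/wt replicate 1 to 10464 CPM in replicate 4 of the same genotype, which had 9 members. The sum of 9 oligodendrocyte markers, led by Mbp, which was detected in 60.8% of members, was highest in Tsc2 wt/wt replicate 2 at 2656 CPM. That of 9 microglia markers was 81.7, 93.1, 84.1 and 85.3 CPM in Tsc2 wt/wt and 706.3, 215.5, 246.0 and 0 CPM in Tsc2 mut/mut. Tsc2 mut/mut replicates 1 to 3 thus lay above every control, and the 0 is from the 1 nucleus of replicate 4. The sum over 13 choroid plexus markers, led by Otx2, was 185.2 CPM in members against 49684 CPM in others, and the rule itself capped 3 of these genes. Defining markers with no UMI in members were Cldn5 and Ly6c1 of endothelium, Pdgfra and Cspg4 of oligodendrocyte progenitors, Kl and Slc4a5 of choroid plexus, Rax of tanycytes and Vtn of mural cells. Among 8 markers of neuroblasts and inhibitory neurons the sum was 78.9 CPM, with the most UMIs for Adarb2 (26) and Sox11 (25), and 6 tanycyte markers summed to 63.7 CPM, with the most UMIs for Col23a1 (24). Members that could be doublets by at least 10 UMIs of oligodendrocyte, microglia, endothelial and neuroblast markers numbered 15. Of 5 genes of dividing cells, Cenpf had 14 UMIs and was detected in 11 members (3.5%) against 0.2% of astrocyte-class barcodes, at 15.2 CPM against 3.45 CPM in other low-mitochondrial barcodes, Mki67, Top2a and Ccnb1 had 1 UMI each, and Cdk1 had none. Of 12 genes for stem cells and their activation, 8 had at least 10 UMIs, Egfr was at 49.9 CPM against 352.6 CPM in astrocyte-class barcodes, and Thbs4 and Tfap2c were among those with none.

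Members made up a share of the low-mitochondrial barcodes that varied widely among mice of either genotype. The share was 11.2%, 5.50%, 7.95% and 2.34% in Tsc2 wt/wt replicates 1 to 4 (36, 41, 21 and 9 members). It was 9.66%, 12.6%, 5.61% and 0.368% in Tsc2 mut/mut replicates 1 to 4 (84, 51, 68 and 1 members). The genotypes overlapped throughout, and the highest and lowest shares were both in Tsc2 mut/mut. Counting error alone gave 95% Wilson intervals of 8.21 to 15.1% for the first mouse and 0.0649 to 2.05% for the last. The means were 6.75 ± 3.76% and 7.06 ± 5.31% (SD, n = 4 each), and an exact two-sided permutation test over the 70 assignments of mice gave p = 0.971. Without Tsc2 mut/mut replicate 4 the mutant mean was 9.29 ± 3.52% (n = 3, exact permutation p = 0.429). The smallest p these designs allow is 0.0286.

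Median depth of members was lower in Tsc2 mut/mut, in a test that did not pass its correction. It was 3973, 3416, 3954 and 3573 UMIs in Tsc2 wt/wt and 2798.5, 2065, 2817.5 and 947 UMIs in Tsc2 mut/mut, and the genotypes did not overlap. The means were 3729 ± 278 and 2157 ± 879 UMIs (SD, n = 4), with an exact two-sided permutation p of 0.0286, the smallest that the design allows, and 0.0857 after Benjamini-Hochberg adjustment over the 3 per-mouse measures computed (share, depth and mitochondrial UMIs). Without Tsc2 mut/mut replicate 4 the difference was -1169 UMIs (exact permutation p = 0.0286). The astrocyte-class barcodes of the same mice differed in the same way, with medians of 3799 to 4454 UMIs in Tsc2 wt/wt and 2643 to 3301 in Tsc2 mut/mut, whereas medians over all other low-mitochondrial barcodes overlapped (1641 to 2715.5 against 1589 to 3460). The lowest astrocyte-class median was that of Tsc2 mut/mut replicate 4, from 8 barcodes, and the lowest without that mouse was 2677. In choroid plexus-class barcodes the medians were 11017, 6845.5 and 8378.5 UMIs in Tsc2 wt/wt replicates 1, 2 and 4, and 22483 UMIs in the 1 such barcode of replicate 3. Those of the mutants ran from 4197.5 to 7980 UMIs and overlapped them. Less RNA in the nucleus and a lower capture of it cannot be told apart here. A median of 41 to 50 axonemal genes was detected per member in Tsc2 wt/wt and of 37 to 38.5 in Tsc2 mut/mut replicates 1 to 3. After each member was thinned to 1000 UMIs, which left out 15 shallower members, the medians were 21 to 26 and 21 to 25 and overlapped.

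The share of mitochondrial UMIs in members was 9.85%, 12.9%, 9.58% and 6.67% in Tsc2 wt/wt and 10.1%, 12.8%, 11.9% and 29.0% in Tsc2 mut/mut. The rule capped each barcode at 30%, so these values are a description. The means were 9.75 ± 2.56% and 15.9 ± 8.80% (SD, n = 4), and without Tsc2 mut/mut replicate 4 the mutant mean was 11.6 ± 1.35% (n = 3). With no cap, Tsc2 mut/mut replicate 4 had 6 such barcodes at 37.9%, Tsc2 mut/mut replicates 1 and 2 were at 10.2% and 13.2%, and the other 5 mice were as given.

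**Figure D3:**
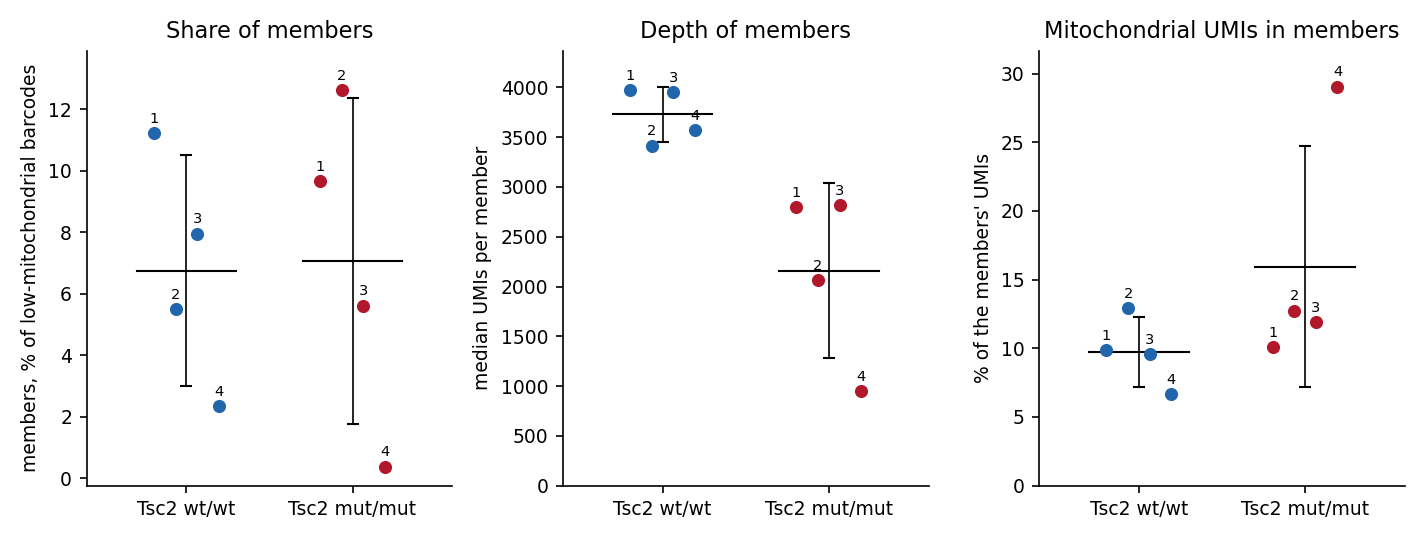
Points are mice, numbered by replicate, for the share of low-mitochondrial barcodes that were members (%), the median UMIs per member, and the percent of members' UMIs from mitochondrial genes. Horizontal lines are means and bars are SD (n = 4), and only median UMIs, 3416 to 3973 against 947 to 2817.5, do not overlap.

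The deleted gene was too sparse in members to check the genotype labels. Tsc2 had 10 UMIs over all 311 members, at 13.6, 7.16, 0 and 0 CPM in Tsc2 wt/wt and 11.5, 17.2, 10.0 and 0 CPM in Tsc2 mut/mut. Since 3′ ends were counted, reads can also come from a transcript that lacks internal exons, so these values do not check the deletion. Of 31 genes of the mTOR pathway, 10 could be tested between genotypes and none passed, 7 of them were fitted higher in Tsc2 mut/mut, and their median log2 difference was 0.26 against -0.04 over all genes tested (0.29 without Tsc2 mut/mut replicate 4). Among those with the most UMIs were Sesn1 at 193.7 ± 50.5 CPM, Irs1 at 178.3 ± 87.8 CPM and Rptor at 120.7 ± 45.8 CPM (SD, n = 7). With 1 mouse left out, the median difference of the mTOR list ranged from 0.149, without Tsc2 wt/wt replicate 3, to 0.400, without Tsc2 wt/wt replicate 1.

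To compare the genotypes across genes, UMIs were summed over the members of each mouse and fitted with edgeR's quasi-likelihood test, in which 2482 genes passed the filter on low counts. With all 8 mice, 4 genes passed a Benjamini-Hochberg adjusted p of 0.05, which is 0.161% of genes tested, and 178 (7.17%) had an unadjusted p under 0.05. Lama3 and Synpr were lower and Rpl39 and Camk2a were higher in Tsc2 mut/mut. Without Tsc2 mut/mut replicate 4, whose 1 nucleus entered the fit as a full sample, 0 of 3063 genes passed in edgeR and 209 had an unadjusted p under 0.05, and DESeq2 on all 8 mice called 0 of 16904 genes, with 159 at an unadjusted p under 0.05. The 4 calls were thus lost without that library, while their fitted differences moved little without it. Removing 15 possible doublets gave 36 calls, of which 32 were higher in Tsc2 mut/mut and 4 lower. Leaving out Tsc2 wt/wt replicate 2 gave 109, of which 101 were higher and 8 lower. In a simulation from these genes' means and library sizes the edgeR fit found 81% of 200 genes changed 4-fold and called 10 unchanged genes. The means included Tsc2 mut/mut replicate 4, no free RNA or doublets were drawn, and each of the 4 calls was fitted at less than 4-fold. The simulation thus does not give the power or error rate for these calls.

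Lama3 encodes a chain of laminin, a protein of basement membranes. It was at 149.7, 272.0, 312.3 and 483.4 CPM in Tsc2 wt/wt and at 46.1, 17.2, 135.5 and 0 CPM in Tsc2 mut/mut. Tsc2 mut/mut replicates 1 to 3 lay below every control, and the 0 of replicate 4 carries no information, since 1 UMI there would lie above every control. Its log2 difference was -1.96 (SE 0.39, edgeR adjusted p = 0.0016) and -1.95 without Tsc2 mut/mut replicate 4 (adjusted p = 0.661). The call was also lost without Tsc2 mut/mut replicate 1 (adjusted p = 0.325) and replicate 2 (adjusted p = 0.0716), and over the 8 fits with 1 mouse left out the difference ranged from -2.95, without Tsc2 mut/mut replicate 3, to -1.65. In the other low-mitochondrial barcodes it was -0.82 (edgeR adjusted p = 0.949), and the test of the difference between the classes gave an unadjusted p of 0.00601 and an adjusted p of 0.867.

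Synpr encodes a synaptic vesicle protein. It was at 149.7, 164.6, 216.2 and 85.3 CPM in Tsc2 wt/wt and at 38.4, 129.3, 10.0 and 0 CPM in Tsc2 mut/mut, and replicate 2 of the mutants lay above replicate 4 of the controls. Its log2 difference was -1.66 (SE 0.42, edgeR adjusted p = 0.0445) and -1.65 without Tsc2 mut/mut replicate 4 (adjusted p = 0.715). The call was also lost without Tsc2 mut/mut replicates 1 and 3 (adjusted p = 0.428 and 0.996) and without Tsc2 wt/wt replicates 1 and 3 (adjusted p = 0.0749 and 0.247). With 1 mouse left out the difference ranged from -2.60, without Tsc2 mut/mut replicate 2, to -1.11, without replicate 3.

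Nipal2, of a family of magnesium transporters, did not pass. It was at 442.4, 372.2, 384.4 and 369.7 CPM in Tsc2 wt/wt and at 142.0, 189.7, 150.6 and 0 CPM in Tsc2 mut/mut, so Tsc2 mut/mut replicates 1 to 3 lay below every control. Its log2 difference was -1.31 (SE 0.37, edgeR adjusted p = 0.126), and -1.30 without Tsc2 mut/mut replicate 4 (adjusted p = 0.134), and it passed without Tsc2 wt/wt replicate 2 (adjusted p = 0.00957) and with relative log expression size factors (adjusted p = 0.0496). Nipal2 was at 12.2 CPM in the other low-mitochondrial barcodes. Gm49896 and Pip5k1b, the next by p among lower genes, had log2 differences of -1.66 and -1.36 (edgeR adjusted p = 0.126 and 0.170) and of -1.67 and -1.36 without Tsc2 mut/mut replicate 4. Both passed with possible doublets removed (adjusted p = 0.047 and 0.046), Pip5k1b also passed without Tsc2 wt/wt replicate 2 (adjusted p = 0.0144), and Gm49896 had no UMI in the other low-mitochondrial barcodes.

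Rpl39 encodes a protein of the large ribosomal subunit. It was at 108.9, 214.8, 60.1 and 56.9 CPM in Tsc2 wt/wt and at 353.1, 319.0, 517.1 and 2112 CPM in Tsc2 mut/mut. Replicates 1 to 3 of the mutants lay above every control, and the last value is 2 UMIs of 1 nucleus. Its log2 difference was 1.70 (SE 0.38, edgeR adjusted p = 0.00785) and 1.69 without Tsc2 mut/mut replicate 4 (adjusted p = 0.508). It did not pass without Tsc2 mut/mut replicate 3 (adjusted p = 0.222) or without Tsc2 wt/wt replicates 1 and 3 (adjusted p = 0.0749 and 0.123), and with 1 mouse left out the difference ranged from 1.48 to 2.30, the latter without Tsc2 wt/wt replicate 2. With no choroid plexus limit on members it was 1.045 and did not pass (adjusted p = 0.884). Ribosomal protein genes have near-identical pseudogenes, and the sharing of their reads is uncertain.

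Camk2a encodes a kinase of excitatory neurons. It was at 61.3, 179.0, 48.0 and 142.2 CPM in Tsc2 wt/wt and at 406.9, 215.5, 336.3 and 0 CPM in Tsc2 mut/mut, where only replicate 4, with 1 nucleus, lay below the controls. Its log2 difference was 1.58 (SE 0.38, edgeR adjusted p = 0.0322) and 1.62 without that mouse (adjusted p = 0.526). It did not pass without Tsc2 mut/mut replicates 1 and 3 (adjusted p = 0.395 and 0.222) or without Tsc2 wt/wt replicates 1 and 3 (adjusted p = 0.461 and 0.247), and the difference ranged from 1.31 to 2.23, the latter without Tsc2 wt/wt replicate 2. Rpl24, Txnip and Rpl26, the next by p among higher genes, had log2 differences of 1.42, 1.55 and 1.27 and did not pass (edgeR adjusted p of 0.108, 0.112 and 0.169). Without Tsc2 mut/mut replicate 4 they were 1.41, 1.58 and 1.23. All 3 passed without Tsc2 wt/wt replicate 2, at 2.22, 1.62 and 2.37 (edgeR adjusted p = 0.000295, 0.0238 and 2.88e-05), and with possible doublets removed. Txnip also passed without Tsc2 wt/wt replicate 1, at 2.36 (adjusted p = 0.026), and Rpl24 without Tsc2 mut/mut replicate 2, at 1.59 (adjusted p = 0.0331), and without Tsc2 wt/wt replicate 4, at 1.47 (adjusted p = 0.0391). With no choroid plexus limit on members the difference of Rpl24 was 0.68.

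The same genes differed in their levels in free RNA. In barcodes of 100 to 199 genes, Rpl39, Rpl26, Camk2a and Rpl24 were at 2112, 2268, 1521 and 1222 CPM. Synpr, Pip5k1b, Txnip, Lama3, Nipal2 and Gm49896 were at 13.8, 5.86, 3.11, 1.79, 0.833 and 0.0212 CPM there. Mitochondrial genes, 48.0% to 49.8% of UMIs in those barcodes, overlapped between genotypes in members, as given above. The summed level of 86 ribosomal protein genes, a list made after values were seen, in members was 8814, 21812, 4420 and 6938 CPM in Tsc2 wt/wt and 19142, 16537, 26375 and 72862 CPM in Tsc2 mut/mut, so replicate 2 of the controls lay among the mutants. In barcodes of 100 to 199 genes the same sum was 112261 to 121095 CPM in Tsc2 wt/wt and 118574 to 135995 CPM in Tsc2 mut/mut. Of 7 neuron markers, all 3 that could be tested (Camk2a, Nrgn and Camk2n1) were fitted higher in Tsc2 mut/mut and 1, Camk2a, passed, where 0.161% of all genes tested did, and it did not pass without Tsc2 mut/mut replicate 4 (edgeR adjusted p = 0.526). The sum over the 7 markers, led by Camk2n1, was 319.9, 973.6, 180.2 and 398.1 CPM in Tsc2 wt/wt and 1455, 862.2, 1456 and 3168 CPM in Tsc2 mut/mut. No neuron marker was at 0 in members. The sum over 9 microglia markers, given above, was also higher in Tsc2 mut/mut replicates 1 to 3 than in every control, and 0 of these genes could be tested. The part of free RNA and of other cells in the calls was not tested.

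**Figure D4:**
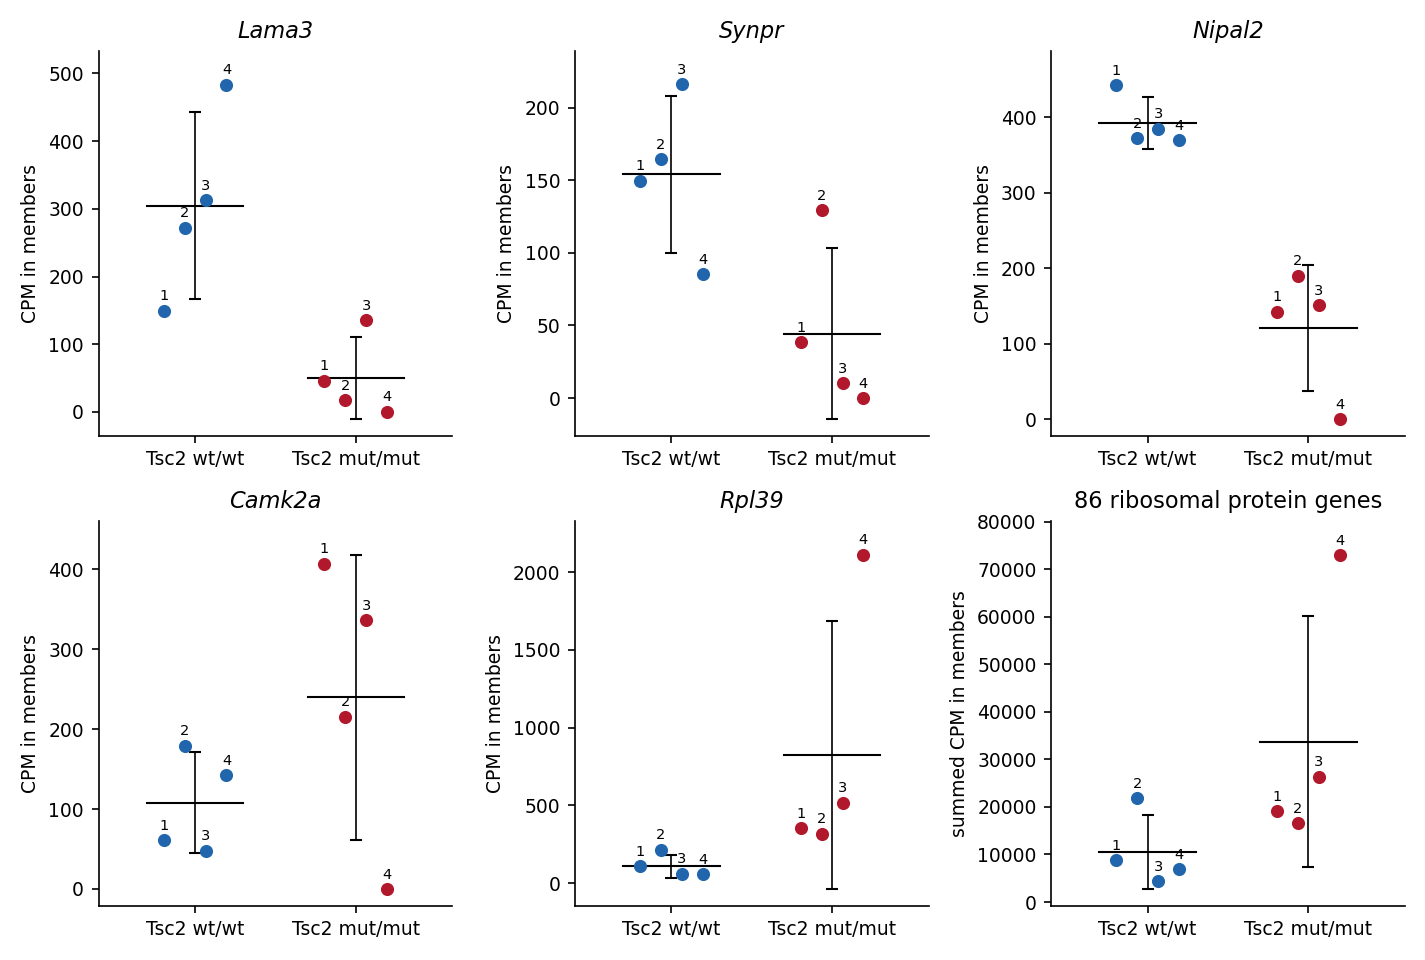
Levels in the summed members of each mouse are given in CPM for Lama3, Synpr, Nipal2, Camk2a and Rpl39 and as the sum over 86 ribosomal protein genes, with points numbered by replicate, lines for means and bars for SD (n = 4). Lama3 and Nipal2 were lower and Rpl39 and Camk2a higher in Tsc2 mut/mut replicates 1 to 3 than in every control, and replicate 4 is 1 nucleus of 947 UMIs. The single genes drawn were chosen by their low p, which favors such a separation.

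Cilia genes did not pass between genotypes in any list. Of 17 dynein arm genes tested, 16 were fitted lower in Tsc2 mut/mut and 1 higher, with a median log2 difference of -0.28, and it was -0.42 for 8 radial spoke genes, -0.24 for 13 genes of the doublets and -0.08 for 14 of the central apparatus. It was -0.10 for 8 nexin-dynein genes, a value that turned to 0.10 without Tsc2 wt/wt replicate 1 and to 0.03 without Tsc2 mut/mut replicate 3, -0.10 for 3 assembly genes, -0.08 for 12 of intraflagellar transport, -0.17 for 9 of the tubulin list and 0.04 for 6 of basal bodies. Over all genes tested the median was -0.04. Without Tsc2 mut/mut replicate 4 the medians of the dynein arm, radial spoke, doublet, central apparatus and nexin-dynein lists were -0.22, -0.35, -0.16, -0.01 and -0.07, against 0.001 over all genes tested. With 1 mouse left out, the median ranged from -0.43 to -0.17 for dynein arms and from -0.51 to -0.25 for radial spokes. It ranged from -0.31 to -0.10 for the doublets and from -0.31 to -0.01 for the central apparatus. The summed level of the dynein arm list was 12244, 8698, 13488 and 8815 CPM in Tsc2 wt/wt and 8252, 10614, 8102 and 4224 CPM in Tsc2 mut/mut, and the genotypes overlapped. Syne1 had a log2 difference of -0.36 (SE 0.51, edgeR adjusted p = 0.992), which was -0.14 without Tsc2 mut/mut replicate 4 (adjusted p = 0.930). Foxj1 had one of 0.05 (SE 0.39, edgeR adjusted p = 0.992) and of 0.06 without that mouse.

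Whether any genotype difference was particular to these nuclei was tested as an interaction of genotype with class, members against the other low-mitochondrial barcodes of the same mouse. Of 8781 genes, 0 passed in edgeR (0%), with 392 at an unadjusted p under 0.05, and without Tsc2 mut/mut replicate 4 it was 0 of 9276, with 488. For Lama3, Synpr, Rpl39 and Camk2a the lowest adjusted p of this test was 0.867 with all mice and 0.837 without that mouse, so none of the 4 calls was shown to be confined to ependymal-like nuclei.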

How the data were processed

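RNA of sorted V-SVZ nuclei was sequenced for 8 mice, 4 per genotype. The authors sorted tdTomato-positive nuclei with doublets gated out, ran Cell Ranger against GRCm38 (mm10) with 60000 barcodes forced per library, and used Seurat 4 for their own clusters, which were not used here. The deposited matrices hold raw UMI counts of 32285 genes per barcode, without normalization. Members and gene lists were chosen with earlier results of these data known.

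UMIs were summed per mouse over members, over other low-mitochondrial barcodes, over choroid plexus-class barcodes (at least 20 UMIs of the 3 choroid plexus genes and under 5 of the selecting genes), over astrocyte-class barcodes (at least 20 UMIs of Slc1a2, Slc1a3 and Gpc5, in neither of the former) and over barcodes of 100 to 199 genes. Mean levels of the choroid plexus and astrocyte classes used mice with at least 10 such barcodes, and their depths used all mice. CPM are counts of a gene divided by all UMIs of a sum and scaled to a common total. The profile used a pseudocount of 10 CPM and 7 mice. Genotypes were compared with edgeR 4.0.16 in R 4.3.3 (TMM, filterByExpr, glmQLFit with robust = TRUE, p adjusted by Benjamini-Hochberg, called at 0.05), with DESeq2 1.42.0 as an alternative, and the interaction had a term for each mouse. Per-mouse values were compared by exact two-sided permutation. The fit was tested on simulated data.

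Named genes are the 25 leading genes, genes past the threshold with the 5 lowest p in each direction, Tsc2, Syne1, up to 4 genes with the most UMIs of each list, and defining markers at 0. Foxj1, Myb, Trp73, Mcidas, Dnah7a, Dnah7b, Dnah7c, Dnah8, Calml4, Enpp2, S100b, Rarres2, Ddx3y, Gpc5 and Sox11 were named from the lists after their values were seen. Some genes that this rule would name are not reported here. Gene positions came from GENCODE M21 on GRCm38 and promoters from RefSeq. No doublet caller was run, and 15 members with UMIs of other types were removed as an alternative. Library depth was 11182335 to 36773832 UMIs, and intervals cover counting error only. Nothing says that libraries were repeated within a mouse, so p-values measure the spread between mice together with that between their sorts and libraries. Alternatives were other limits on members, thinning to 1000 UMIs, other size factors and filters, each mouse left out and the replicate block, and the block for median and mitochondrial UMIs and without Tsc2 mut/mut replicate 4, and the interaction without that mouse, were added after seeing the data.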

Additional observations from a re-analysis of the deposited data

Results flagged for a closer look

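Among 30 groups of 4 mice, 3 held a value whose gap to the nearest mouse, as a share of the group's range, was above Dixon's 95% critical value for 4 values, and chance flags about 1 in 20 groups. All 3 were the single member of Tsc2 mut/mut replicate 4. Its mitochondrial UMIs were at 29.0% against 10.1% to 12.8% in the other Tsc2 mut/mut mice. Its Rpl39 level was 2112 CPM against 319.0 to 517.1 CPM, and its Rpl26 level was 3168 CPM against 310.4 to 492.0 CPM. In this nucleus 1 UMI equals 1056 CPM, so the Rpl39 value is 2 UMIs and the Rpl26 value 3 UMIs.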

How the results depend on the processing

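The share of members was 0.31 percentage points higher in Tsc2 mut/mut and never passed the test. The sign turned with at least 8 UMIs (-0.558), under 10% mitochondrial UMIs (-0.384), at least 500 genes (-0.122) and thinning to 1000 UMIs (-0.287), and ranged from -1.54 to 2.54 with 1 mouse left out. The difference in median UMIs was -1792 to -1169 with 1 mouse left out, and p rose to 0.0857 without Tsc2 wt/wt replicate 1 (-1491 UMIs) and to 0.0571 without replicate 3 (-1497 UMIs). The difference in mitochondrial UMIs was 1.83 to 8.14 percentage points with 1 mouse left out and 8.53 with no cap.

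DESeq2 called 0 of 16904 genes, where edgeR with no filter called 11 of 16905 and with its filter 4 of 2482. With the filter the 4 became 0 with at least 8 UMIs, 0 under 10% mitochondrial UMIs and 0 with mice of at least 10 members, but these limits also removed Tsc2 mut/mut replicate 4 from the fit (the last also Tsc2 wt/wt replicate 4), and removing Tsc2 mut/mut replicate 4 alone gave 0. They became 1 with no mitochondrial limit and 1 with no choroid plexus limit. With possible doublets removed they became 36, of which 32 were higher in Tsc2 mut/mut. With at least 10 UMIs per gene they became 20, of which 16 were higher in Tsc2 mut/mut. The 20 included the microglia genes Inpp5d and Csf1r, named after their values were seen, and the sum of microglia markers by mouse is given above. With 1 mouse left out the count was 0 (without Tsc2 mut/mut replicate 4) to 109 (without Tsc2 wt/wt replicate 2), of which 101 were higher in Tsc2 mut/mut, and was 1, 8 and 2 without Tsc2 mut/mut replicates 1, 2 and 3 and 2 and 9 without Tsc2 wt/wt replicates 3 and 4. The cause was not tested. The sign of the fold change of the 5 genes of lowest p in each direction and of Syne1 did not turn in any fit that gave a value. Apart from Syne1 these genes were chosen by p in the main fit, and the fits share most mice, so a stable sign was likely. The interaction called 2 genes, Cntnap5c and Arntl, named after their values were seen, with at least 10 UMIs per gene, and 0 without Tsc2 mut/mut replicate 4. Of the 25 leading genes, 13 stayed with a pseudocount of 1 CPM and 20 with 50 CPM.

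Same-numbered mice had correlations of deviations from -0.293 to -0.073. These cannot decide whether replicate numbers paired the mice, since the deviations were from genotype means that include the 1 nucleus of Tsc2 mut/mut replicate 4. With the replicate block, 0 genes were called (101 at an unadjusted p under 0.05), also without Tsc2 mut/mut replicate 4 (0), the share difference was 0.312 (exact p = 1), and median UMIs differed by -1572 (exact p = 0.125, the smallest that 16 flips allow).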

Other observations

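Of 8 nuclear noncoding RNAs, 0 were at least 4-fold higher in members than in the other low-mitochondrial barcodes. Malat1, which stays in the nucleus, was at 30717 ± 4972 CPM in members (SD, n = 7) and 25631 CPM in the others, against 822.7 CPM in barcodes of 100 to 199 genes. Kcnq1ot1, an imprinted nuclear RNA, was at 629.2 ± 137 CPM in members and 194.3 CPM in the others, and was detected in 74.6% of members and 39.7% of astrocyte-class barcodes.

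Genes of planar polarity and apical junctions, which orient and anchor the ciliary tufts, were mostly shared with other nuclei, and 2 of 18 were at least 4-fold higher in members. Magi2, a junction scaffold, was at 2863 ± 310 CPM in members and 2359 CPM in the others, and Prickle2, of planar polarity, at 938.1 ± 209 and 355.6 CPM. Tnr, an extracellular matrix gene placed among markers of oligodendrocyte progenitors, was at 360.4 ± 82.9 CPM in members and 137.9 CPM in astrocyte-class barcodes, while Pdgfra and Cspg4 of the same list had no UMI. Mecom, placed among endothelial markers, was at 127.6 ± 74.5 CPM in members and 7.51 CPM in astrocyte-class barcodes, while Cldn5 had none. Mecom had a log2 difference between genotypes of -0.96 (SE 0.38) and did not pass (edgeR adjusted p = 0.412), and the difference was also -0.96 without Tsc2 mut/mut replicate 4.

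Xist was at 902.3 ± 244 CPM in members over 7 mice, and of 4 Y-linked genes 3 had no UMI in members and Ddx3y had 1.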
